A study of Homo sapiens with 10 samples.

Results

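The interleukin-6 (IL-6) family genes described here are 10 genes picked by symbol from a list of ligands, receptors and signalling components. The ligands are IL6, LIF, IL11 and CLCF1, the receptors are IL6R, IL6ST, OSMR and LIFR, and STAT3 and SOCS3 act inside the cell. The rule used symbols and no measured values, but the members and the pathway lists below were chosen with earlier results of these data known. They are 10 of the 26256 genes counted in untreated cells and 10 of the 55736 genes counted in a drug experiment, each symbol had 1 row in each table, and all 10 had enough reads to be tested in both.

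Cytokines of this family signal through receptor complexes that share the chain gp130, the product of IL6ST. IL-6 and IL-11 bind a ligand-specific receptor that then joins gp130, whereas LIF bridges gp130 and the LIF receptor, and oncostatin M can use the OSM receptor with gp130. Receptor engagement activates Janus kinases, which phosphorylate STAT3. STAT3 enters the nucleus and switches on its targets, among them SOCS3, which binds gp130 and Janus kinases and shuts the signal off. In epithelial cells the family is known for acute-phase responses, wound repair and inflammation. IL6 is a classic NF-kB target, and LIF is a known target of p53.

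RNA-seq was performed on MCF10A, an immortalized, non-transformed human breast epithelial line. MCF10A cells are parental and untreated, and G12V cells are MCF10A cells that carry an HRas oncogene with the G12V change, delivered by a lentivirus that confers hygromycin resistance, with 2 libraries of each. The labels write the genotype as H-RAS Gv12. In a separate experiment parental MCF10A cells received 10 µM Nutlin-3a, which blocks MDM2 and thereby stabilizes p53, or its vehicle DMSO for 4 h, with 3 libraries of each. All cells grew in medium with epidermal growth factor, insulin, hydrocortisone, cholera toxin and horse serum. A vector for green fluorescent protein was delivered along with the oncogene, and G12V cells were selected with hygromycin. Whether the MCF10A cells of these libraries carried the fluorescent control vector, the promoter that drives the oncogene, and whether the G12V cells were a pool or a clone are not given in the sources used here.

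Total counts per library were between 21538593 and 23683975 in untreated cells and between 15453226 and 17378734 in the drug experiment. Counts scaled to library size (CPM, the share of reads times 1e6) were computed on library sizes scaled by edgeR's TMM factors. Differential expression was tested over all genes with edgeR's quasi-likelihood method, and a gene is called DE where its adjusted p is below 0.05 and its log2 fold change exceeds 0.5 in size. HRAS, which checks the G12V label, had a mean of 69.3 ± 4.77 CPM in MCF10A and of 573 ± 82.0 CPM in G12V libraries (SD, n = 2 each), endogenous and introduced transcripts counted together. CDKN1A and MDM2, which check the Nutlin-3a label, rose by log2 fold changes of 2.16 and 2.54. Of 8 epithelial markers, 6 were DE and lower in G12V cells (KRT5, KRT14, KRT17, EPCAM, CDH1 and TP63), and the summed level of the 8 was 6856 to 8415 CPM in MCF10A and 1363 to 1662 CPM in G12V libraries. Of 8 fibroblast markers LUM was DE and higher, at 0 to 1 read in MCF10A and 27 to 28 reads in G12V libraries, and COL3A1 had 0 reads throughout. The summed fibroblast level was 37.5 to 64.9 CPM in MCF10A and 53.4 to 60.1 CPM in G12V libraries. Among blood cell markers CD68 was DE and higher and CSF1R DE and lower, while PTPRC, CD3E and AIF1 had at most 1 read in any of the 4 libraries, and the sums of the 8 were 17.6 to 21.0 CPM and 39.2 to 74.4 CPM. No endothelial marker was DE, and the sums of those 5 were 8.68 to 33.0 CPM and 9.92 to 15.3 CPM. The part of these marker shifts in the results below was not tested. In bulk RNA, fewer cells that express a gene and less RNA per cell cannot be told apart.

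IL6 is the member whose level differed most between the cell types, so its upstream sequence is shown. The RefSeq promoter table (GRCh38.p14) held 8 of the 10 members in 11 windows, all but LIF and CLCF1. The run printed is chr7:22766569-22766765 of hg19, plus strand, where it was found as an exact match. It ends just before the IL6 start of the untreated table and lies in an intron of a longer IL6 transcript, whose start the other table uses. The run is the first 197 of the 250 bases before the RefSeq start, cut where an annotated IL6 exon begins. The RefSeq start therefore lies downstream of the printed end. Capitals mark the letters GGGANTTTC, an NF-kB site, at 73 to 65 bases before the RefSeq start.

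IL6: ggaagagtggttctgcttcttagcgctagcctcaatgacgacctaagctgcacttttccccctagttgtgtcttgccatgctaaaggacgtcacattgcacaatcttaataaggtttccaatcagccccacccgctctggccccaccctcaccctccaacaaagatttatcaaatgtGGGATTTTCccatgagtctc

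The 250 bases before each start were searched on both strands for GGGANTTTC (NF-kB), TTCNNNGAA (STAT, which reads the same on both strands) and TGAGTCA or its reverse complement TGACTCA (AP-1). The NF-kB letters were found in 1.12% of 35116 RefSeq promoters, and among the members' windows in that of IL6. The STAT letters were found in 6.57% of all promoters and in 2 of the 3 LIFR windows. The AP-1 letters were found in 4.20% of all promoters and in the IL11 window. A match of letters is a description of the window and does not show that a factor binds there.

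The first comparison sets G12V cells against MCF10A cells. Beside the oncogene, G12V cells had gone through hygromycin selection and, per the authors, a growth arrest with regrowth after a few weeks. The shares of these in the differences below cannot be told apart. Among the members 2 ligands rose in G12V cells, IL6 from near 0 and LIF about 5.24-fold, and no member was DE and lower. Over all genes 11.0% were DE, 5.01% higher and 5.95% lower. The median log2 fold change of the 10 members was 0.55, also with IL6 set at the lower end of its counting interval, against -0.0011 over all genes tested. In the plot of CPM by library the groups of G12V and MCF10A cells were apart, with G12V higher, for IL6, LIF, OSMR, LIFR and SOCS3. That is 5 of 10 members, where 27.5% of all genes showed the same, and 1 member, IL11, was apart and lower, where 27.4% of all genes were. An unadjusted p under 0.05 was reached by 4 members (IL6, LIF, LIFR and SOCS3) and by 25.6% of all genes.

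**Figure D1:**
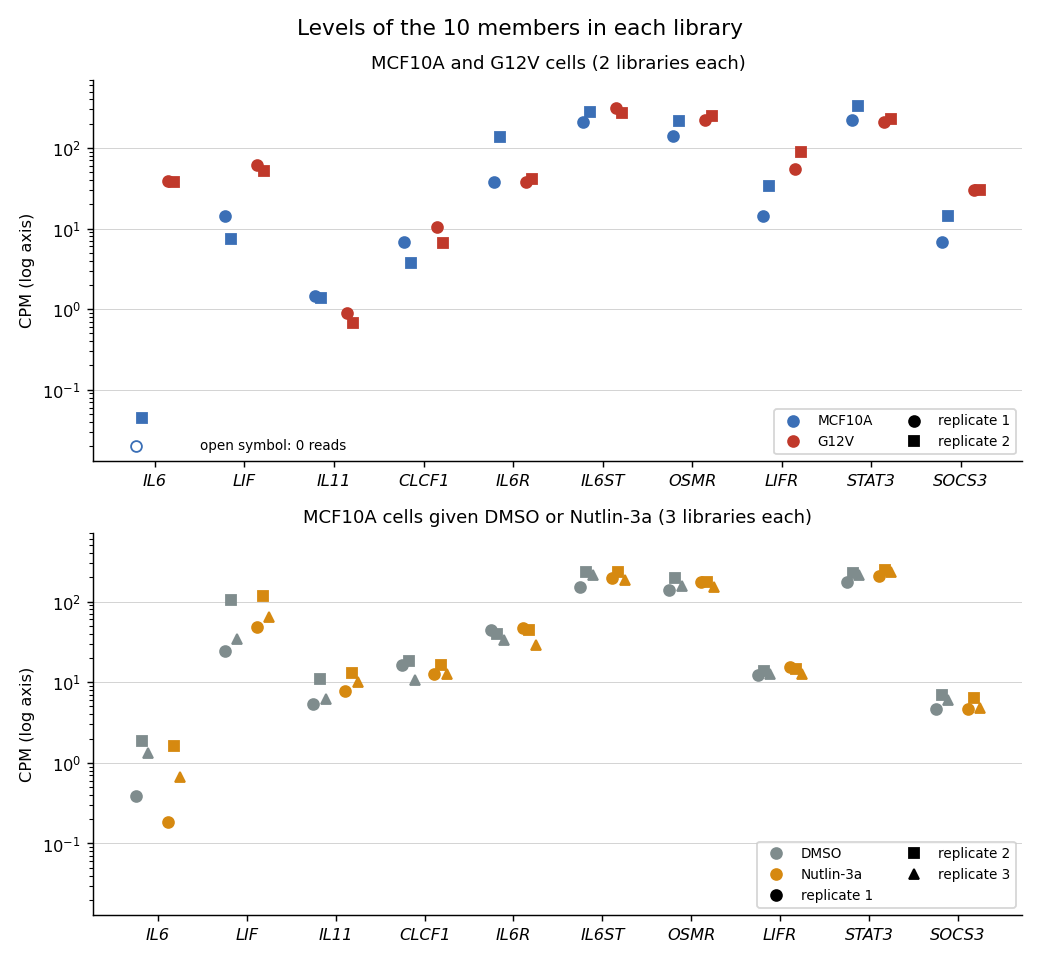
CPM of each member in each library on a log axis, for untreated MCF10A and G12V cells (top) and for MCF10A cells given DMSO or Nutlin-3a (bottom). CPM are not divided by length, so genes are not compared along the axis. IL6 sits at 0 to 0.044 CPM in MCF10A and at 38.2 to 38.6 CPM in G12V libraries, and IL6R is at 136 CPM in MCF10A replicate 2 and at 29.1 to 46.8 CPM in the other 9 libraries.

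IL6 encodes the founding cytokine of the family. It had 0 and 1 reads in the MCF10A libraries against 902 and 856 reads in the G12V libraries. The G12V libraries lay close together, at 38.6 and 38.2 CPM, and far above any MCF10A library. IL6 rose in G12V cells (adjusted p = 0.000774, edgeR), and the ratio of the summed reads, 1758 to 1, was 1716 after scaling to library size, with an exact 95% counting interval of 308 to 67805 that covers counting error alone. IL6 spans chromosome 7 from 22766766 to 22771621 in this table, and LOC541472, which overlaps it on the opposite strand, had 0 to 10 reads. The library kit does not mark strand, so reads of overlapping antisense genes cannot be told apart from those of the members.

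LIF, leukemia inhibitory factor, on the minus strand of chromosome 22 from 30636436 to 30642840, had 310 and 166 reads in MCF10A (14.1 and 7.31 CPM) and 1415 and 1160 reads in G12V cells (60.5 and 51.7 CPM). Every G12V value was above every MCF10A value. Means were 10.7 ± 4.79 and 56.1 ± 6.20 CPM (SD, n = 2 each), and LIF rose by 2.39 ± 0.35 (SE) on the log2 scale (adjusted p = 0.0114, edgeR). Without MCF10A replicate 1 the adjusted p of IL6 was 0.0536 and that of LIF 0.0775 in the same edgeR test, with log2 fold changes of 9.62 and 2.97, and none of the 14883 genes then tested was DE (2830 had an unadjusted p under 0.05). In every other fit of this comparison that was run, both stayed DE.

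The remaining ligands were low. IL11, which signals through its own receptor and gp130, had 32 and 31 reads in MCF10A against 21 and 15 reads in G12V libraries. The groups did not overlap, but the log2 fold change of -0.84 (95% interval -1.83 to 0.14, adjusted p = 0.263 from edgeR) did not pass the test. CLCF1, cardiotrophin-like cytokine factor 1, ranged from 3.79 to 6.73 CPM in MCF10A and from 6.60 to 10.4 CPM in G12V libraries, and these ranges overlapped (log2 fold change 0.69, 95% interval -0.31 to 1.70, adjusted p = 0.367 from edgeR). With the replicate number as a block CLCF1 was DE and higher (adjusted p = 0.0451, edgeR). LOC100130987, which overlaps CLCF1 on the opposite strand, had 12 to 41 reads, against 86 to 243 reads of CLCF1.

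**Figure D2:**
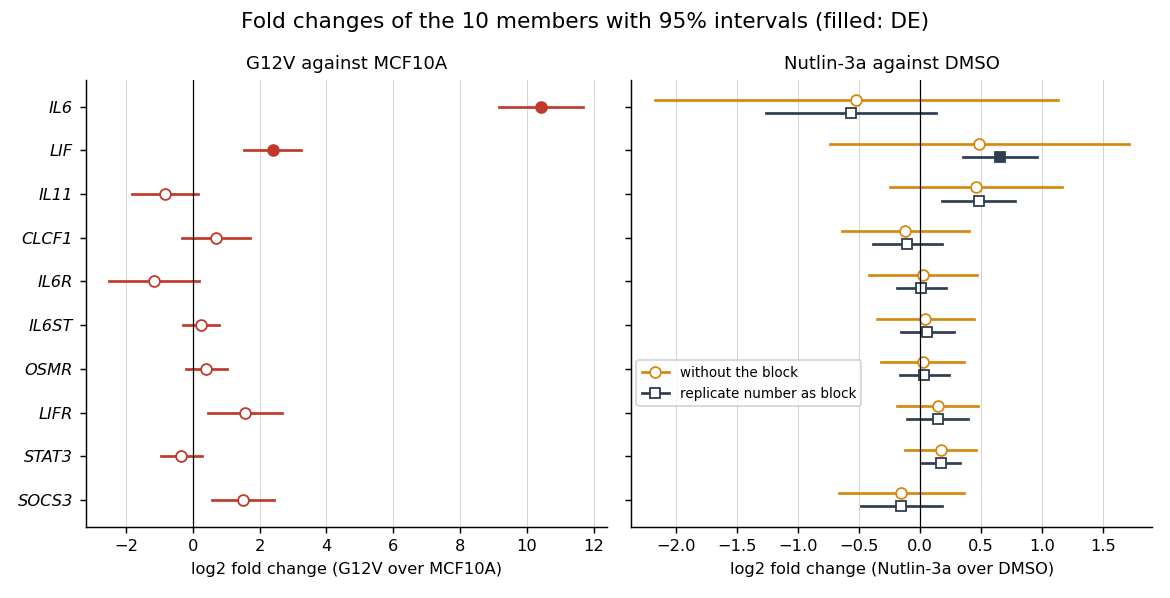
Log2 fold changes of the 10 members with 95% intervals, for G12V against MCF10A (left) and Nutlin-3a against DMSO (right, with and without the replicate number as a block). Filled symbols are DE: IL6 and LIF on the left and, with the block, LIF at 0.66 on the right. The fitted value of IL6 on the left depends on the prior count, since MCF10A had 0 and 1 reads.

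Of the receptors none passed the test without a block. With the replicate number as a block LIFR (higher, adjusted p = 2.32e-05) and IL6R (lower, adjusted p = 0.0413) were DE in edgeR. LIFR, the ligand-binding partner of gp130 for LIF, had 312 and 771 reads in MCF10A (14.2 and 34.0 CPM) and 1289 and 1966 reads in G12V cells (55.1 and 87.7 CPM). The lower G12V library was above the higher MCF10A library. The difference of 1.57 ± 0.45 (SE) on the log2 scale did not pass (adjusted p = 0.0837, edgeR), and LIFR was DE with DESeq2 (adjusted p = 0.00508) and with edgeR's exact test (adjusted p = 0.00905). In edgeR's quasi-likelihood test it was DE without MCF10A replicate 2 (log2 fold change 2.33, adjusted p = 0.00229) and without G12V replicate 1 (1.86, adjusted p = 0.00504). It was not DE in edgeR without MCF10A replicate 1 (1.09, adjusted p = 0.26) or without G12V replicate 2 (1.19, adjusted p = 0.0889). LIFR lies on the minus strand of chromosome 5 from 38475065 to 38595507. Its antisense gene LIFR-AS1 had 24 to 42 reads in these libraries. OSMR, the oncostatin M receptor chain, had 139 and 213 CPM in MCF10A and 219 and 247 CPM in G12V cells. The groups were apart by a narrow margin, with a log2 fold change of 0.41 (95% interval -0.21 to 1.03, adjusted p = 0.394 from edgeR). IL6ST, which encodes gp130, overlapped between the groups, at 210 and 277 CPM in MCF10A and 310 and 269 CPM in G12V cells (log2 fold change 0.25, 95% interval -0.30 to 0.79).

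IL6R, the ligand-binding receptor of IL-6, had 840 and 3098 reads in MCF10A against 878 and 916 reads in G12V libraries. MCF10A replicate 2, at 136 CPM, stood apart, and the other 3 libraries lay between 37.5 and 40.9 CPM. The log2 fold change of -1.16 (95% interval -2.50 to 0.19, adjusted p = 0.26 from edgeR) was 0.036 without that library.

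STAT3, the transcription factor that carries the signal to the nucleus, had 220 and 334 CPM in MCF10A and 210 and 228 CPM in G12V cells. The groups overlapped, and the log2 fold change was -0.34 (95% interval -0.96 to 0.28, adjusted p = 0.479 from edgeR). SOCS3, its feedback inhibitor, had 148 and 326 reads in MCF10A (6.73 and 14.4 CPM) and 701 and 681 reads in G12V cells (30.0 and 30.4 CPM). Both G12V libraries were higher than both MCF10A libraries. The difference of 1.52 ± 0.38 (SE) on the log2 scale missed the threshold (adjusted p = 0.0579, edgeR). SOCS3 was DE with DESeq2 (adjusted p = 0.00262), with edgeR's exact test (adjusted p = 0.00346) and with library totals alone (adjusted p = 0.0431 from edgeR). With the replicate number as a block SOCS3 was DE as well (adjusted p = 0.000405, edgeR). It was DE in the quasi-likelihood test of edgeR without MCF10A replicate 2 (log2 fold change 2.16, adjusted p = 0.00438), without G12V replicate 1 (1.52, adjusted p = 0.0217) or without G12V replicate 2 (adjusted p = 0.0308), and not without MCF10A replicate 1 (1.09, adjusted p = 0.18). SOCS3 spans chromosome 17 from 76352858 to 76356160 on the minus strand.

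To set the members side by side, CPM were divided by the length of each canonical transcript in GENCODE v44 on GRCh37. On this scale of level, CPM per kb, STAT3 led in MCF10A at 44.8 to 67.9, followed by OSMR at 25.1 to 38.5, IL6ST at 23.3 to 30.7 and IL6R at 6.62 to 23.7. OSMR and IL6ST overlapped in range, and so did IL6ST and IL6R, which reached 23.7 only in replicate 2. SOCS3, CLCF1, LIF and LIFR followed between 1.34 and 5.25 CPM per kb, each overlapping its neighbour. IL11 lay below them at 0.574 to 0.612, and IL6 was last at 0 to 0.039 CPM per kb. In G12V cells IL6 was the third, at 33.9 to 34.2 CPM per kb, within the range of IL6ST (29.8 to 34.3) and below STAT3 and OSMR, which overlapped. LIF came next at 13.4 to 15.6, then SOCS3 at 11.0 to 11.1, IL6R, LIFR and CLCF1 between 3.87 and 8.31, each overlapping its neighbour, and IL11 last at 0.281 to 0.378 CPM per kb. With DMSO the order of means was STAT3 (41.8), OSMR (29.7), IL6ST (22.0), LIF (14.1), CLCF1 (8.91), IL6R (6.80), IL11 (3.16), SOCS3 (2.14), LIFR (1.22) and IL6 (1.06 CPM per kb), with LIF from 6.34 to 27.3. LIF therefore overlapped OSMR, IL6ST, CLCF1 and IL6R there, and the Nutlin-3a libraries had the same order of means. The canonical transcript may not be the isoform expressed here.

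The pathway around the members was read from lists of 64 other genes, of which 57 were tested. In G12V cells 12 of them were DE and higher and 4 DE and lower, at a median of 0.31 on the log2 scale. Over all genes 5.01% were DE and higher and 5.95% DE and lower. Each list below is to be read beside these shares.

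**Figure D3:**
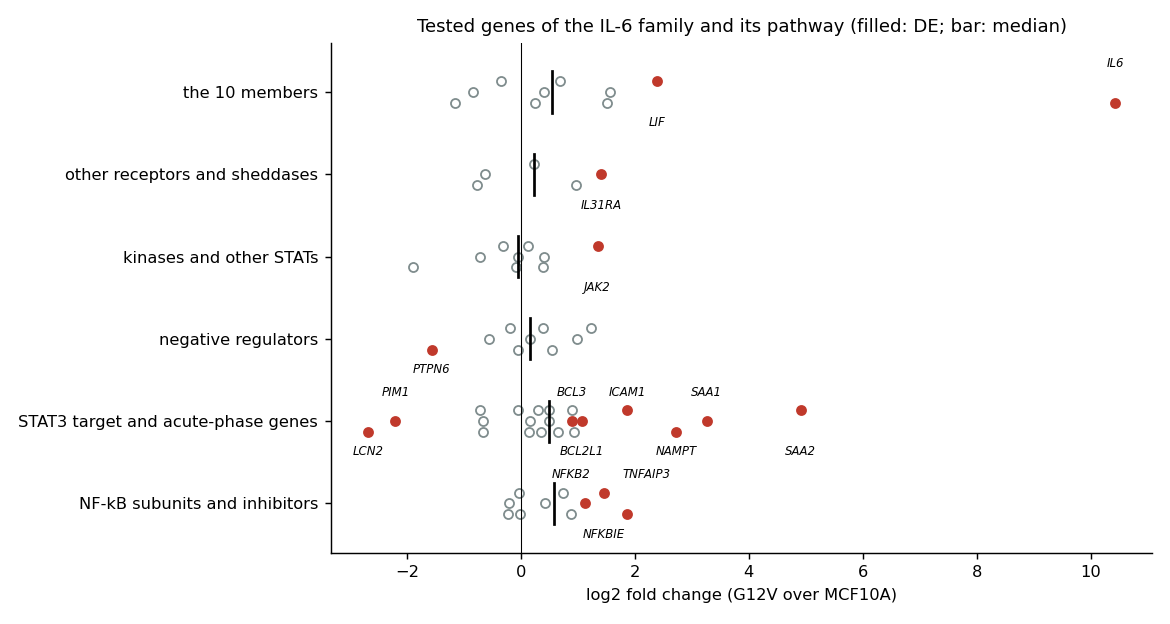
Log2 fold changes in G12V against MCF10A cells for the tested genes of the members and 5 pathway lists, without the other ligands. Filled, named points are DE and bars are medians, which lie between -0.050 for the kinases and other STATs and 0.58 for the NF-kB genes.

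Among the other ligands and ligand subunits, EBI3, the shared subunit of IL-27 and IL-35, had 1 and 3 reads in MCF10A and 30 and 73 reads in G12V libraries, and was DE and higher (adjusted p = 0.0186, edgeR). With so few reads in MCF10A its fitted log2 fold change depends on the prior count, at 4.58 as tested and 3.73 with a prior count of 2. OSM, IL27 and IL31 had 0 reads in all 4 libraries. Of 6 other receptors and sheddases, 5 were tested, and IL31RA, the IL-31 receptor chain that pairs with OSMR, rose by a log2 fold change of 1.40 (adjusted p = 0.0275, edgeR), with means of 8.18 ± 1.73 and 21.7 ± 2.84 CPM (SD, n = 2 each). It was not DE without MCF10A replicate 2 (adjusted p = 0.111, edgeR).

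All 9 kinases and other STATs were tested and 1 was DE, JAK2, a gp130-associated kinase, which rose by a log2 fold change of 1.35 (adjusted p = 0.023, edgeR), with means of 8.78 ± 0.912 and 22.4 ± 2.71 CPM (SD, n = 2 each). Of 9 negative regulators, all tested, PTPN6, the phosphatase SHP-1, fell by 1.57 on the log2 scale (adjusted p = 0.0337, edgeR), with means of 23.9 ± 3.36 and 8.06 ± 2.93 CPM (SD, n = 2 each). Without MCF10A replicate 2 neither JAK2 (adjusted p = 0.0515) nor PTPN6 (adjusted p = 0.0727) was DE in edgeR. The other 8 negative regulators, SOCS1, SOCS2 and CISH among them, were not DE. In each of these lists 1 of 9 genes was DE, close to the 11.0% over all genes.

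Of 23 STAT3 target and acute-phase genes, 21 were tested. Of these 6 were DE and higher (SAA1, SAA2, NAMPT, ICAM1, BCL2L1 and BCL3) and 2 DE and lower (PIM1 and LCN2), with a median of 0.49 on the log2 scale. Among all genes 5.01% were DE and higher and 5.95% DE and lower. The serum amyloid A genes SAA1 and SAA2, classic acute-phase genes, rose from 47.5 ± 16.6 to 455 ± 182 CPM and from 6.52 ± 2.92 to 196 ± 91.9 CPM (SD, n = 2 each). On the log2 scale they rose by 3.26 ± 0.40 and 4.91 ± 0.49 (SE), with adjusted p of 0.007 and 0.004 from edgeR. Because SAA1 and SAA2 are near-identical copies, the split of reads between them is uncertain. NAMPT, an NAD-synthesis enzyme also secreted as a cytokine, rose by a log2 fold change of 2.72 (SE 0.44), and ICAM1, an adhesion molecule for leukocytes, by 1.86 (SE 0.41). The survival gene BCL2L1 and the NF-kB cofactor BCL3 rose by 1.07 and 0.89. The kinase gene PIM1 fell by 2.20 on the log2 scale and LCN2, lipocalin 2, by 2.68, the latter at 28 to 42 reads in MCF10A and 5 to 6 reads in G12V cells. The call of BCL2L1 was lost without MCF10A replicate 2 (adjusted p = 0.101, edgeR) and without G12V replicate 2 (0.0691). That of BCL3 was lost without a filter on low counts (adjusted p = 0.0578, edgeR), without MCF10A replicate 2 (0.0717) and without G12V replicate 1 (0.0837), and that of LCN2 without G12V replicate 2 (0.0531).

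Of 10 NF-kB subunits and inhibitors, all tested, 3 were DE and higher and none was DE and lower, where 5.01% and 5.95% of all genes were. TNFAIP3, the feedback inhibitor A20, rose by 1.86 ± 0.20 (SE) on the log2 scale (adjusted p = 0.00529, edgeR), with means of 22.3 ± 2.39 and 80.8 ± 10.2 CPM (SD, n = 2 each). NFKBIE, an IkB inhibitor, and NFKB2, the precursor of p52, rose by 1.45 (SE 0.26) and 1.13 (SE 0.23). Without MCF10A replicate 1 none of the 58 pathway genes then tested was DE, although 26 had an unadjusted p under 0.05 in edgeR.

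The second comparison asks what stabilizing p53 for 4 h changed. Without regard to replicate number no member was DE and none had an unadjusted p under 0.05 in edgeR, none was DE with DESeq2 or edgeR's exact test, and the groups overlapped for all 10 members. Over all genes 0.170% were DE, 3.42% had an unadjusted p under 0.05 and 8.07% had groups that did not overlap. Libraries of the same replicate number in the labels deviated together. With that number as a block LIF was DE and higher, 1.22% of all genes were DE, 0.702% were DE and higher, and 11.7% had an unadjusted p under 0.05, among them 3 members, LIF, IL11 and STAT3.

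LIF had 444, 1720 and 583 reads with DMSO (24.6, 105.5 and 34.0 CPM) and 782, 1881 and 987 reads with Nutlin-3a (48.2, 116.6 and 64.9 CPM). In both treatments replicate 2 was the highest, and within each replicate number the treated library was above its control, by 0.97, 0.14 and 0.93 on the log2 scale. Without the block the log2 fold change was 0.49 (95% interval -0.74 to 1.71, adjusted p = 0.9997 from edgeR), and with the block LIF rose by 0.66 ± 0.14 (SE; 95% interval 0.36 to 0.96, adjusted p = 0.0326, edgeR). With the block but without both libraries of replicate 1 it was 0.48, under the fold threshold, and without replicate 2 or 3 it was 0.95 and 0.53 and DE. These reduced fits keep too few libraries to measure the spread of 1 gene, so their calls carry little weight.

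**Figure D4:**
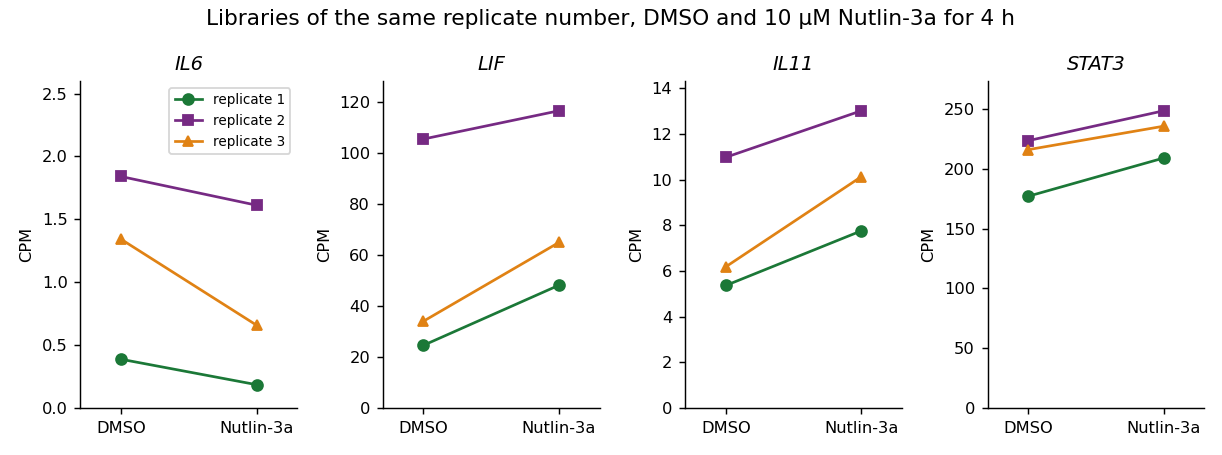
CPM of IL6, LIF, IL11 and STAT3 with DMSO and with 10 µM Nutlin-3a, on linear axes from 0, with lines that join libraries of the same replicate number. All 3 lines go up for LIF, IL11 and STAT3 and down for IL6, and the spread between numbers is wider than the step between treatments.

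IL11 had 97, 179 and 106 reads with DMSO and 126, 210 and 154 reads with Nutlin-3a. The treated library was higher within each replicate number, by 0.53, 0.25 and 0.71 on the log2 scale, but the blocked log2 fold change of 0.48 (95% interval 0.18 to 0.78, adjusted p = 0.127 from edgeR) did not pass. IL6 was read few times, with 7, 30 and 23 reads with DMSO and 3, 26 and 10 reads with Nutlin-3a. The treated library was lower within each number, and the blocked log2 fold change was -0.56 (95% interval -1.26 to 0.13, adjusted p = 0.55 from edgeR). CLCF1 had 10.6 to 18.5 CPM with DMSO and 12.7 to 16.6 CPM with Nutlin-3a, and the treated range lay inside the control range.

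None of the receptors passed the test, with or without the block. IL6R ranged from 33.4 to 45.0 CPM with DMSO and from 29.1 to 46.8 CPM with Nutlin-3a, and IL6ST from 151 to 232 CPM and from 184 to 234 CPM. OSMR ranged from 138 to 198 CPM and from 150.0 to 177 CPM, and LIFR from 12.4 to 13.7 CPM and from 12.6 to 15.5 CPM. The 95% intervals of these 4 log2 fold changes without the block lay between -0.42 and 0.48. LIFR-AS1 had at most 5 reads here. STAT3 had 177 to 224 CPM with DMSO and 209 to 249 CPM with Nutlin-3a, and its blocked log2 fold change of 0.17 (95% interval 0.017 to 0.33) had an adjusted p of 0.356 in edgeR. SOCS3 had 85, 112 and 102 reads with DMSO and 76, 102 and 72 reads with Nutlin-3a, and the groups overlapped (log2 fold change -0.15, 95% interval -0.67 to 0.36).

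Of the 64 other pathway genes 54 were tested with Nutlin-3a, 0 were DE in edgeR, and 1 had an unadjusted p under 0.05. DESeq2 and edgeR's exact test called 0 of them as well. The most abundant gene of each list had a log2 fold change of 0.25 for CNTF, 0.029 for ADAM10, 0.039 for STAT6, 0.10 for PTPN11, -0.030 for MCL1 and -0.054 for NFKB1. With the replicate block 1 gene was DE, BCL6, a transcriptional repressor and STAT3 target, which was singled out after its values were seen. It had 111, 80 and 50 reads with DMSO and 179, 139 and 86 reads with Nutlin-3a, higher within each number, and differed by 0.86 ± 0.14 (SE) on the log2 scale with the block (adjusted p = 0.0077, edgeR) and by 0.86 without it, where it was not DE (adjusted p = 0.9997, edgeR). With the block 13 of the 54 pathway genes had an unadjusted p under 0.05 in edgeR, where 11.7% of all genes had. FOS (log2 fold change 0.48, adjusted p = 0.0241, edgeR) and PIM1 (-0.49, adjusted p = 0.0192, edgeR) then missed only the fold threshold. Both were also singled out after their values were seen. The marker sums were alike in range between treatments, at 3488 to 5948 CPM with DMSO and 3753 to 6402 CPM with Nutlin-3a for the epithelial list.

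The parental libraries of the tables were counted on different annotations and are given side by side without a test. IL6 had 0 and 0.044 CPM in untreated MCF10A and 0.387 to 1.84 CPM with DMSO. LIF had 7.31 to 14.1 CPM in untreated MCF10A, 24.6 to 105.5 CPM with DMSO and 51.7 to 60.5 CPM in G12V cells, so DMSO replicate 2 was above both G12V libraries. IL11 had 1.37 to 1.45 CPM in untreated MCF10A and 5.37 to 11.0 CPM with DMSO. STAT3, IL6ST and OSMR lay between 139 and 334 CPM in untreated MCF10A and between 138 and 232 CPM with DMSO.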

How the data were processed

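Poly(A) RNA of MCF10A (n = 2), G12V (n = 2), DMSO (n = 3) and Nutlin-3a (n = 3) cells was sequenced. Per the authors' notes, TopHat alignments to hg19 were counted by HTSeq, and raw counts per gene were deposited in 2 tables on different annotations. The annotations and the strand setting are not given in the sources used here. The labels call the replicates biological, and no libraries were identical.

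Each table was fitted by itself with edgeR 4.0.16 (limma 3.58.1, R 4.3.3) after filterByExpr, with TMM factors, the quasi-likelihood F-test, a prior count of 0.125 and Benjamini-Hochberg adjustment. Each SE was obtained by dividing the size of the log2 fold change by the root of its F. DESeq2 1.42.0 was an alternative, beside edgeR's exact test, other scalings, filters, thresholds and prior counts, a replicate block and the omission of each library. The counting interval of IL6 is exact (Clopper-Pearson) and covers counting error only. The 3 counts set for HP allow for counting error in MCF10A alone. The fits were also run on simulated counts with known changes, drawn with the spread that edgeR estimated from these data. Such a run checks the code and cannot show that edgeR's model holds here.

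All members were named in both comparisons, and of the other lists each DE gene or, in a list with none, the most abundant gene. Of these, 1 DE gene is not reported here by name, but is kept in the counts. The members and lists were chosen with earlier results of these data known. Libraries of the drug experiment were paired by the replicate number in the labels, and the pairing rests on that number and on these data. After subtraction of group means, DMSO and Nutlin-3a libraries that share a number had correlations of 0.649, 0.681 and 0.701, and the others of -0.516 to -0.221. The subtraction itself pushes the others below 0 where same-numbered libraries correlate. An exact permutation test cannot go below a p of 0.333 (2 against 2) or 0.1 (3 against 3), so single genes rest on the fits. Sequences come from RefSeq and lengths from GENCODE, read with Python 3.11.15, pandas 2.3.3, numpy 2.4.6 and matplotlib 3.10.9.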

Additional observations from a re-analysis of the deposited data

How the results depend on the processing

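In G12V against MCF10A cells the 1575 DE genes became 2526 with edgeR's exact test and 0 to 2129 when 1 library was left out, 0 of them without MCF10A replicate 1. The 2 DE members became 4 (IL6, LIF, LIFR and SOCS3) with DESeq2 and with the exact test, and 0 to 4 when 1 library was left out, with the lone library of a group assumed to vary like the others. The DE pathway genes numbered 16, and 0 to 17 without 1 library. These libraries share only a replicate number. Deviations of same-numbered libraries correlated at 0.554. With 2 libraries per group the deviations mirror each other, so this is 1 value and not the agreement of 2 pairs. With the number as a replicate block 4158 genes, 6 members (IL6, LIF, LIFR, SOCS3 and CLCF1 higher, IL6R lower) and 28 pathway genes were DE. The log2 fold change of IL6R ranged from -1.78 to 0.036 over the omitted libraries.

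After Nutlin-3a the 23 DE genes became 91 with DESeq2, 83 with edgeR's exact test, 99 without a filter and 7 to 11 when 1 library was left out. With the replicate block 165 genes, 1 member (LIF) and 1 pathway gene (BCL6) were DE, and with both libraries of a number also left out, an alternative chosen after seeing the data, 304, 169 and 222 genes (without replicates 1, 2 and 3), 0 to 1 members and 2 to 3 pathway genes were. The log2 fold changes of IL6R and OSMR were -0.011 and -0.0082 with library totals alone. When 1 library was left out, that of CLCF1 ranged from -0.32 to 0.050, IL6R from -0.10 to 0.21, IL6ST from -0.12 to 0.17 and OSMR from -0.085 to 0.18. Under the block without replicate 1 they were 0.023, -0.0054, -0.097 and -0.10, and IL6R without replicate 2 was at -0.071, so no sign can be given to these small values. The cause of these shifts was not tested.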

Other observations

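In the Nutlin-3a experiment replicate 2 had the highest CPM in both treatments for 8 of the 10 members, all but IL6R and LIFR. Same-numbered libraries deviated together over all genes tested, and the share of all genes with this pattern was not counted. The pattern therefore cannot be called particular to the members. For LIF the step from the next library was from 34.0 to 105.5 CPM with DMSO and from 64.9 to 116.6 CPM with Nutlin-3a. The highest CPM of IL6R, by contrast, was in replicate 1 of both treatments, at 45.0 and 46.8 CPM.

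HP, haptoglobin, an acute-phase plasma protein, did not have enough reads to be tested and was noticed after its values were seen. It had 0 reads in both MCF10A libraries and 9 and 14 reads in the G12V libraries. The G12V mean was 3.70 times the level of 3 counts in an MCF10A library, and the counting error of that mean is not included.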
